A study of Mus musculus with 4 samples.

Results

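The mRNA of the aminoacyl-tRNA synthetases was examined in mouse liver tumors from animals given sorafenib and from animals given carrier. The genes were chosen by name alone: every row whose symbol is a single letter followed by ars, with or without a final 1 or 2, together with Eprs, Farsa, Farsb and Tarsl2. This gave 38 of the 39179 genes in the deposited tables, 21 encoding cytosolic enzymes and 17 encoding mitochondrial enzymes. Each group held 2 libraries. The sorafenib group came from C57BL/6 wild-type mice treated every second day for 3 weeks, and the carrier group from mice of the same strain given carrier on the same schedule. All tumors, in both groups, had been started by hydrodynamic injection of transposons for Myc and for the mutant Nras G12V, a procedure that delivers DNA to hepatocytes of an otherwise unaltered liver. No sources used here state the sorafenib dose, the age of the mice, or whether the replicates came from separate mice, so the p-values measure only the spread between these libraries.

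An aminoacyl-tRNA synthetase joins an amino acid to the tRNA that reads its codons, the step that fixes the genetic code in translation. Animal cells carry a set for the cytosol and another for mitochondria, both encoded in the nucleus. By convention the mitochondrial gene has a final 2 in its symbol. Gars and Kars are exceptions, because each gene makes both the cytosolic and the mitochondrial form of its enzyme; here they were counted with the cytosolic genes. Tarsl2 also ends in 2 but encodes a cytosolic threonyl enzyme and was counted there. Eprs is a fusion of the glutamyl and prolyl enzymes, and Farsa and Farsb are the subunits of a single phenylalanyl enzyme. Several cytosolic genes are known targets of ATF4, the transcription factor of the amino acid starvation response, and of MYC, which drives growth and protein synthesis. Sorafenib is an oral inhibitor of RAF and of receptor tyrosine kinases, used against advanced hepatocellular carcinoma.

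The values are CPM, reads per 1000000 counted reads. Depth was 4067427 and 5246530 reads in sorafenib replicates 1 and 2, and 5932939 and 5300806 reads in carrier replicates 1 and 2. Sorafenib replicate 2 stood apart. On log2(CPM + 1) its correlation across genes was 0.878 and 0.889 with the carrier libraries, against 0.961 for sorafenib replicate 1 with each. Between the sorafenib libraries it was 0.937, and between the carrier libraries 0.978. By this measure sorafenib replicate 1 was nearer to the carrier libraries than to sorafenib replicate 2. Genes are not independent replicates. All 5 hepatocyte markers were detected in every library, 2 of them below and 2 above both carrier libraries, with Hnf4a at 697 and 601 CPM in sorafenib and 642 and 580 CPM in carrier tumors. Markers of fetal liver and liver cancer (Afp, Gpc3, Igf2, H19, Dlk1) were below both carrier libraries in both sorafenib libraries for 5 of 5 genes, where 41.3% of all tested genes lay below. Their summed level was 15201.0 and 84.4 CPM in sorafenib replicates 1 and 2, against 38171.8 and 33062.3 CPM in carrier replicates 1 and 2. The same held for 5 of 5 macrophage markers (47.8 to 103 CPM summed in sorafenib, 193 to 208 CPM in carrier), 4 of 5 endothelial markers (52.0 to 130 against 158 to 187 CPM) and 3 of 5 stellate and fibroblast markers (174 to 202 against 303 to 450 CPM). The remaining stellate markers were Lrat, above both carrier libraries, and Dcn, which overlapped with a log2 fold change of 0.17. Of the 5 biliary markers none lay below in both libraries (106 to 521 against 472 to 672 CPM). Most of that sum was Spp1, at 515 and 96.1 CPM in sorafenib and 467 and 657 CPM in carrier tumors. Krt19 was at 0 and 3.05 CPM in sorafenib replicates 1 and 2, against 2.36 and 5.66 CPM in carrier. Epcam and Sox9 had positive log2 fold changes (0.52 and 0.12), and Krt19, Krt7 and Spp1 negative ones (-1.23, -0.29 and -1.31). T and NK cell markers summed to 6.67 to 7.38 against 9.62 to 10.5 CPM, with 2 of 4 below, and B cell markers to 1.72 to 3.44 against 2.45 to 3.20 CPM, with 0 of 1 tested below. In these bulk samples fewer cells of a type and less RNA per cell cannot be told apart, and the part of these markers in the values of the synthetases was not tested.

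Of the synthetase genes, most were lower in the sorafenib pair than in the carrier pair, and the median difference was larger for the cytosolic than for the mitochondrial set. Together the 38 genes took 0.201% of reads (95% Wilson interval 0.197 to 0.206) in sorafenib replicate 1 and 0.14% (0.137 to 0.143) in sorafenib replicate 2. In carrier replicates 1 and 2 they took 0.28% (0.275 to 0.284) and 0.246% (0.242 to 0.25). These intervals cover counting error only. Both sorafenib shares lay below both carrier shares. The 21 cytosolic genes summed to 1600 and 1101 CPM with sorafenib, against 2289 and 2018 CPM with carrier. The 17 mitochondrial genes summed to 411 and 302 CPM in the sorafenib libraries and to 506 and 443 CPM in the carrier libraries.

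Gene by gene, 33 of 38 synthetases had a negative log2 fold change (sorafenib minus carrier on log2(CPM + 1)), where 67.8% of all 13149 tested genes did. All 38 passed the filter on low values, at least 1 CPM in at least 2 libraries. Both sorafenib libraries lay below both carrier libraries for 27 of 38 synthetases, against 41.3% of all tested genes, and above both for 2 of 38, against 17.5%. By compartment, 17 of 21 cytosolic and 10 of 17 mitochondrial genes lay below. The median log2 fold change was -0.87 for the cytosolic genes, -0.44 for the mitochondrial genes and -0.26 for all tested genes. No synthetase passed the test: limma with Benjamini-Hochberg adjustment over all 13149 genes called 0 of them (0% of all tested genes in either direction), with adjusted p from 0.24 to 0.884 among the 38. At an unadjusted limma p below 0.05 there were 13 of 21 cytosolic and 2 of 17 mitochondrial genes, all of them lower, where 12.9% of tested genes were lower and 6.36% higher at that level. On the recovered reads edgeR's quasi-likelihood test called 0 of 38 and 0% of all genes, and DESeq2 called 0 of 38, where it called 4.05% of all genes with an adjusted p higher and 0.432% lower.

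**Figure D1:**
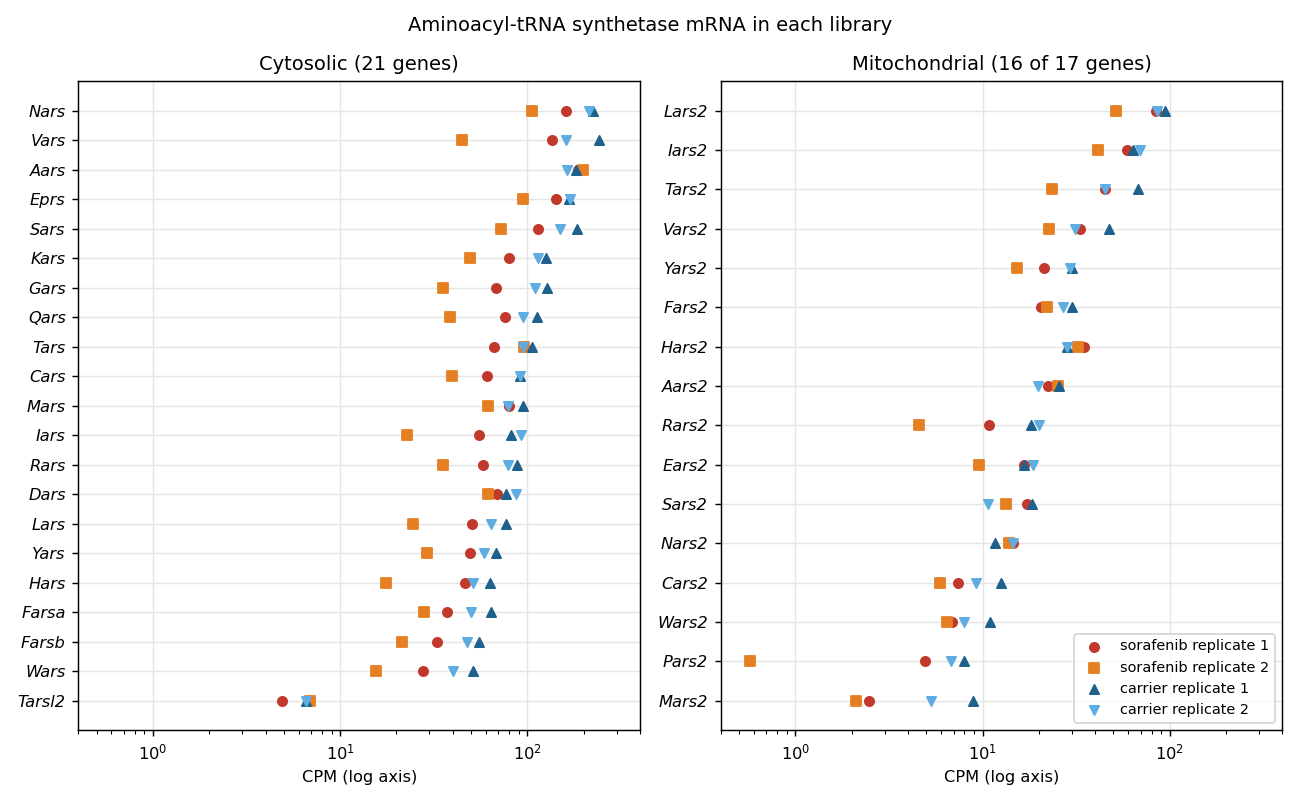
CPM of each synthetase gene (log axis; not adjusted for gene length) in the 4 libraries, 21 cytosolic genes left and 16 of the 17 mitochondrial genes right, each point a library. For most cytosolic genes the order from low to high is sorafenib replicate 2, sorafenib replicate 1, then the carrier libraries; Aars (198 CPM in sorafenib replicate 2) and Tars (96.3 CPM) are among those that do not follow it.

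The size of the difference depended on the sorafenib library. Against the carrier mean, the cytosolic median was -0.52 in sorafenib replicate 1 and -1.19 in sorafenib replicate 2, the mitochondrial median -0.29 and -0.73, and the median of all tested genes -0.10 and -0.40. Sorafenib replicate 2 was below sorafenib replicate 1 for 32 of 38 synthetases, while 68.1% of all tested genes had that order. With sorafenib replicate 2 alone against the carrier pair, limma called 25 of 38 synthetases lower (16 cytosolic and 9 mitochondrial), where it called 29.8% of all tested genes lower and 9.34% higher. With sorafenib replicate 1 alone it called 0 of 38, where it called 1.27% lower and 1.76% higher. In both fits the lone sorafenib library is assumed to vary like the carrier pair.

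CPM without scaling factors carries a shift of the whole distribution. The median of all tested genes was -0.26 on CPM, -0.05 with TMM factors and -0.01 with upper-quartile factors. With the same factors the cytosolic median was -0.64 and -0.59, and the mitochondrial median -0.22 and -0.18. With TMM factors 22 of 38 synthetases lay below both carrier libraries and 3 of 38 above, against 30.3% and 25.9% of all tested genes. With upper-quartile factors 16 of 21 cytosolic and 5 of 17 mitochondrial genes lay below both carrier libraries in both sorafenib libraries, where 28.2% of all tested genes did. In the other direction 1 cytosolic and 3 mitochondrial genes lay above, again against 28.2% of all tested genes.

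**Figure D2:**
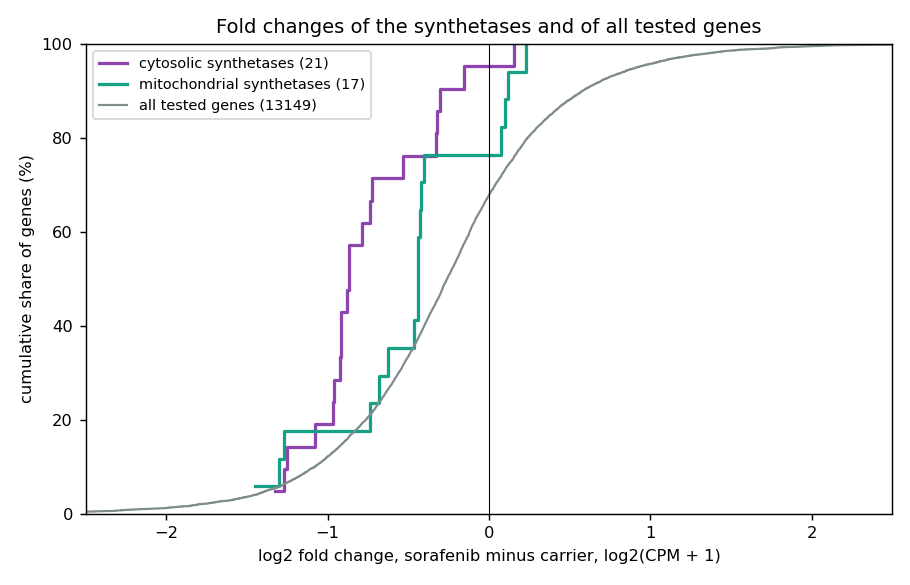
Cumulative share of genes (%) by log2 fold change, sorafenib minus carrier on log2(CPM + 1), for the 21 cytosolic synthetases, the 17 mitochondrial synthetases and the 13149 tested genes. The cytosolic curve lies left of the others around its median of -0.87; the mitochondrial median is -0.44 and that of all genes -0.26.

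Vars, Iars, Gars and Wars had the most negative fold changes of the cytosolic genes. Vars (valyl; ENSMUSG00000007029, chromosome 17, 35000987 to 35016322 on GRCm38) was at 135 and 44.8 CPM in sorafenib replicates 1 and 2, against 240 and 162 CPM in carrier replicates 1 and 2. Its log2 fold change was -1.33 (SE 0.515, limma adjusted p = 0.258). Iars (isoleucyl; ENSMUSG00000037851, chromosome 13, 49682100 to 49734267) was at 55.3 and 22.7 CPM with sorafenib and 82.1 and 92.1 CPM with carrier, a log2 fold change of -1.27 (SE 0.417, adjusted p = 0.247 by limma). In both genes the groups did not overlap, and sorafenib replicate 2 was less than 0.5 times sorafenib replicate 1.

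Gars (glycyl; ENSMUSG00000029777, chromosome 6, 55038007 to 55079500) was at 68.3 and 35.3 CPM with sorafenib, against 127 and 110 CPM with carrier. Its log2 fold change was -1.25 (SE 0.34, limma adjusted p = 0.24), or -1.02 with TMM factors. Wars (tryptophanyl; chromosome 12, 108860030 to 108894174), whose human counterpart is induced by interferon gamma, was at 27.8 and 15.6 CPM against 51.1 and 40.0 CPM in carrier, a log2 fold change of -1.08 (SE 0.342, adjusted p = 0.243 by limma). The other dual-location gene, Kars (lysyl; ENSMUSG00000031948, chromosome 8, 111993443 to 112011323), was at 79.4 and 49.4 CPM in sorafenib and 125 and 113 CPM in carrier tumors, a log2 fold change of -0.92 (SE 0.281, adjusted p = 0.241 by limma). For all 3 genes the sorafenib libraries lay below the carrier libraries on CPM and with TMM and upper-quartile factors.

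Aars, Tars, Mars and Tarsl2 were the cytosolic genes that did not lie below. Aars (alanyl; ENSMUSG00000031960, chromosome 8, 111033144 to 111057664) was at 186 and 198 CPM with sorafenib, against 182 and 164 CPM with carrier. Its log2 fold change was 0.15 (SE 0.201, limma adjusted p = 0.672), 0.43 with upper-quartile factors, and it was the only cytosolic synthetase of the 21 with a positive value on CPM. The groups did not overlap, although the nearest libraries, at 186 CPM in sorafenib and 182 CPM in carrier, were close. In the annotation, exons of Aars overlap those of Exosc6 on the same strand over 1326 bases, which is 14.3% of its exon length. The identifier of Exosc6 in that annotation is not among the deposited genes. How reads there were assigned is not given in the sources used here, so the level of Aars is uncertain.

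Tars (threonyl; ENSMUSG00000022241, chromosome 15, 11382301 to 11399665) was at 66.6 and 96.3 CPM in sorafenib replicates 1 and 2, against 106 and 94.9 CPM in carrier replicates 1 and 2. Unlike Vars or Iars, it was higher in sorafenib replicate 2 than in sorafenib replicate 1. Its log2 fold change was -0.32 (SE 0.253, limma adjusted p = 0.477) with overlapping groups. Tarsl2, the second cytosolic threonyl gene, was at 4.92 and 6.86 CPM in sorafenib and 6.57 and 6.60 CPM in carrier tumors, also overlapping; its fold change of -0.15 became 0.05 with TMM factors. Mars (methionyl), at 79.9 and 61.6 CPM against 95.2 and 79.2 CPM in carrier, overlapped by less than 1 CPM. Dars (aspartyl), at 68.6 and 61.8 CPM against 77.4 and 87.2 CPM in carrier, lay below on CPM and overlapped with TMM factors.

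Promoter sequences are shown for the 5 genes with a match to the ATF4 motif, since they span the range of fold changes from Aars to Iars. The letters TGATGNAA, on either strand, are the core of the composite element that ATF4 binds with a C/EBP partner. CACGTG is the E-box that MYC binds with MAX. RefSeq promoters (GRCm38.p6, 250 bases before to 50 after the start) were matched for 28 of the 38 genes. TGATGNAA was found in 5 of these 28, against 3.97% of all 32851 promoters, and CACGTG also in 5 of 28, against 7.15%. The 5 with TGATGNAA were Aars, Tars, Gars, Iars and Yars, all of them cytosolic genes commonly reported as ATF4 targets, of which 8 had a promoter; it was found in 0 of 6 other cytosolic and 0 of 14 mitochondrial promoters. The windows below run from 150 bases before the start to 30 bases from it, with matches to either motif in capitals. They are chr8:111033692-111033871 (plus strand) for Aars, chr15:11399629-11399808 (minus strand) for Tars, chr6:55037851-55038030 (plus) for Gars, chr13:49681980-49682159 (plus) for Iars and chr4:129189753-129189932 (plus) for Yars.
Aars: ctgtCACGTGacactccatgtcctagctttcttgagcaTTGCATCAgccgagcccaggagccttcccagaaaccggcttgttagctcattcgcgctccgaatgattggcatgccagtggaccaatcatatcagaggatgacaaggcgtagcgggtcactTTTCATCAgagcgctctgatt
Tars: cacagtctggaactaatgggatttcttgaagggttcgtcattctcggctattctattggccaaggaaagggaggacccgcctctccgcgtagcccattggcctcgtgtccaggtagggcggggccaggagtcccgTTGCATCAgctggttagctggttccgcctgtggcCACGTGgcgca
Gars: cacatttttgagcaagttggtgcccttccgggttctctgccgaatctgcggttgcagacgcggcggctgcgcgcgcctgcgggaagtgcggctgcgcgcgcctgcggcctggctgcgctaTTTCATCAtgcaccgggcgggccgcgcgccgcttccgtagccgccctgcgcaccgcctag
Iars: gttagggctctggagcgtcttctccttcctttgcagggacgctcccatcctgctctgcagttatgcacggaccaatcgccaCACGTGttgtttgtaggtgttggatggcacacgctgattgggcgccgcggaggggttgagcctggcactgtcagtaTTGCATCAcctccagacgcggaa
Yars: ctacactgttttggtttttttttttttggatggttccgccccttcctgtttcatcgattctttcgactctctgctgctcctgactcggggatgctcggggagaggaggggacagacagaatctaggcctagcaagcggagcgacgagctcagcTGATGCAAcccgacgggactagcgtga

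Counting the first base from the RefSeq start as 1, the TGATGNAA matches begin at -112 and 10 in Aars and at -15 in Tars. They begin at -30 in Gars, at 8 in Iars and at 4 in Yars. These positions depend on the annotation: the GENCODE gene Aars begins at 111033144, upstream of its whole window. The E-box begins at -146 in Aars, at 20 in Tars and at -69 in Iars, and it was not found in the windows of Gars and Yars; the searched motifs do not overlap each other in these windows. Farsb and Ears2 were the other genes with an E-box. The log2 fold changes of the 5 printed genes ran from 0.15 for Aars and -0.32 for Tars to -0.72 for Yars, -1.25 for Gars and -1.27 for Iars. A letter match is a description of the sequence and shows no binding. Yars (tyrosyl; chromosome 4, 129189760 to 129219607) was at 49.2 and 29.2 CPM in sorafenib and 68.4 and 58.5 CPM in carrier tumors (limma adjusted p = 0.263).

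The remaining cytosolic genes lay below both carrier libraries, with log2 fold changes from -0.53 for Eprs to -0.96 for Lars. Eprs was at 142 and 94.9 CPM in the sorafenib libraries and 167 and 169 CPM in the carrier libraries. Nars (asparaginyl), the synthetase with the highest level per kilobase of principal transcript in every library, was at 161 and 106 CPM against 225 and 213 CPM in carrier (log2 fold change -0.74, SE 0.26). Sars (seryl) was at 114 and 72.4 CPM against 184 and 150 CPM in carrier, and Cars (cysteinyl) at 61.0 and 39.8 CPM against 91.4 and 91.7 CPM. The subunits of the phenylalanyl enzyme had like values, Farsa -0.79 (SE 0.268) and Farsb -0.92 (SE 0.292). Rars (arginyl), Qars (glutaminyl), Lars (leucyl) and Hars (histidyl) had log2 fold changes of -0.87, -0.92, -0.96 and -0.96. Their limma adjusted p were 0.25, 0.258, 0.258 and 0.29.

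**Figure D3:**
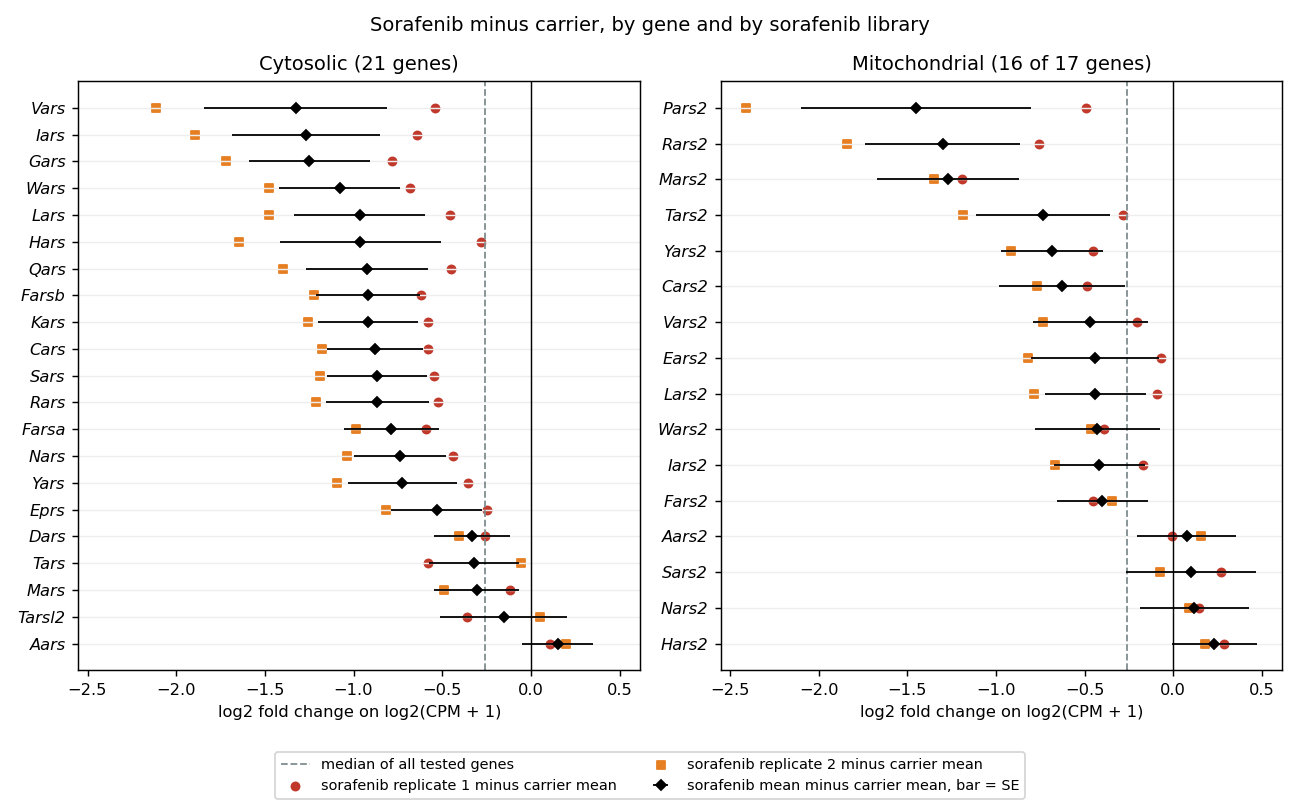
Log2 fold change on log2(CPM + 1) of the 21 cytosolic and 16 of the 17 mitochondrial genes: diamonds with bars give sorafenib mean minus carrier mean with its SE, circles and squares give sorafenib replicates 1 and 2 alone against the carrier mean, and the dashed line is the median of all tested genes (-0.26). The squares lie left of the circles for most cytosolic genes, by the widest margin among the cytosolic genes in Vars (-2.11 against -0.54), and Aars stands right of 0 in both libraries.

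The cytosolic genes were also grouped by membership of the multisynthetase complex, an assembly of synthetases on scaffold proteins, and by reported link to ATF4. The 8 enzymes of the multisynthetase complex (Dars, Eprs, Iars, Kars, Lars, Mars, Qars and Rars) had a median of -0.89, with 7 of 8 below both carrier libraries, and the 13 cytosolic genes outside it a median of -0.87, with 10 of 13 below, where 41.3% of all tested genes lay below. All 3 scaffold genes of the complex lay below both carrier libraries on CPM, and 2 of 3 did with TMM or upper-quartile factors. Aimp1 was at 39.8 and 26.1 CPM in sorafenib and 66.7 and 68.7 CPM in carrier tumors (log2 fold change -1.05, SE 0.276, limma adjusted p = 0.24). Aimp2 was at 8.85 and 4.38 CPM against 10.96 and 10.4 CPM in carrier, and Eef1e1 at 17.7 and 8.58 CPM against 27.0 and 18.3 CPM. The 13 genes commonly reported as ATF4 targets had a median of -0.87 and the 8 other cytosolic genes -0.89, a difference that was not tested. By catalytic fold, 18 of 18 class I genes had negative values (median -0.80) and 14 of 19 class II genes did (median -0.44), a share near the 67.8% of all tested genes, with Eprs left out because it belongs to both classes.

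The mitochondrial set was more mixed than the cytosolic set. Pars2, Rars2 and Mars2 had the most negative values. Rars2 (arginyl; ENSMUSG00000028292, chromosome 4, 34614957 to 34660167) was at 10.8 and 4.57 CPM with sorafenib, against 18.0 and 19.997 CPM with carrier, a log2 fold change of -1.30 (SE 0.436, adjusted p = 0.25 by limma). Mars2 (methionyl; ENSMUSG00000046994, chromosome 1, 55237177 to 55248470) was at 2.46 and 2.10 CPM in sorafenib and 8.93 and 5.28 CPM in carrier tumors, a log2 fold change of -1.27 (SE 0.399, adjusted p = 0.242 by limma). Its values rest on 10 and 11 reads in the sorafenib libraries and 53 and 28 reads in the carrier libraries. In both genes the groups did not overlap.

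Pars2 (prolyl; ENSMUSG00000043572, chromosome 4, 106651069 to 106655282) was at 4.92 CPM in sorafenib replicate 1, from 20 reads, and at 0.572 CPM in sorafenib replicate 2, from 3 reads. The exact Poisson interval of the second value is 0.118 to 1.67 CPM. In the carrier libraries it was at 7.92 and 6.79 CPM, from 47 and 36 reads. Its log2 fold change was -1.45 (SE 0.649, limma adjusted p = 0.274) with both libraries and -0.49 in sorafenib replicate 1 alone, so most of it came from sorafenib replicate 2.

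Hars2, Nars2, Sars2 and Aars2 were the mitochondrial genes with positive values. Hars2 (histidyl; ENSMUSG00000019143, chromosome 18, 36783008 to 36792562) was at 34.7 and 32.2 CPM in sorafenib and 28.3 and 28.3 CPM in carrier tumors, a log2 fold change of 0.23 (SE 0.24, adjusted p = 0.585 by limma) with both sorafenib libraries above both carrier libraries. Aars2 (alanyl) was at 22.4 and 25.2 CPM against 25.5 and 19.8 CPM in carrier, Sars2 (seryl) at 17.2 and 13.3 CPM against 18.4 and 10.8 CPM, and Nars2 (asparaginyl) at 14.5 and 13.9 CPM against 11.6 and 14.5 CPM. These 3 overlapped between groups. With TMM factors Nars2 lay above both carrier libraries in both sorafenib libraries.

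The other 10 mitochondrial genes had log2 fold changes between -0.40 and -0.74. Lars2 (leucyl) was at 84.1 and 51.5 CPM in sorafenib and 94.1 and 85.3 CPM in carrier tumors, and Iars2 (isoleucyl) at 58.8 and 41.4 CPM against 63.5 and 69.0 CPM. Both lay below on CPM and overlapped with TMM factors, as did Wars2 and Fars2. Yars2, at 21.4 and 15.2 CPM against 30.002 and 29.2 CPM in carrier (log2 fold change -0.68, SE 0.288, limma adjusted p = 0.261), and Cars2, at 7.38 and 5.91 CPM against 12.5 and 9.24 CPM, lay below under all of these scalings. Tars2, Vars2 and Ears2 overlapped on CPM already. Exons of Iars2 overlap those of Rab3gap2 on the opposite strand, and 22.1% of its 75-base words occur there too, so its value is uncertain unless reads were counted by strand. Exons of Fars2 overlap those of Nrn1 on the opposite strand over 501 bases, 8.72% of its exon length. Nrn1 was at 400 and 415 CPM in sorafenib and 403 and 467 CPM in carrier tumors, so Fars2, at 20.4 and 22.1 CPM in sorafenib and 30.002 and 26.8 CPM in carrier tumors, is uncertain in the same way. Among the 37 genes other than Iars2 at most 13.2% of such words (in Aars) occurred in another gene's transcripts.

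Each mitochondrial gene was then set against the cytosolic gene for the same amino acid inside each library, where the scaling of the library cancels apart from the added 1 CPM. The Pars2 and Ears2 pairs share Eprs, and the mean of Farsa and Farsb was set against Fars2. The values of Fars2, of Iars2 in the isoleucine pair and of Aars in the alanine pair are uncertain as stated. The cytosolic fold change was the more negative in 11 of 17 pairs and the mitochondrial in 6, and the median of cytosolic minus mitochondrial log2 fold change was -0.25. It was -0.41 without sorafenib replicate 1, -0.39 without carrier replicate 1 and -0.15 without carrier replicate 2. The median over the pairs of the difference in level inside a library, on the log2 scale, was 2.31 and 2.36 in the sorafenib libraries and 2.29 and 2.34 in the carrier libraries, so this median was not lower with sorafenib. The ratio of the summed cytosolic to the summed mitochondrial CPM, over all 38 genes, was 3.89 and 3.65 in sorafenib and 4.52 and 4.56 in carrier tumors. Gene levels in a pair are not adjusted for length; only their shift between libraries is compared, and no test was made over the pairs.

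Histidine gave the widest gap. Hars (chromosome 18, 36766528 to 36783205) and Hars2 are divergent neighbors whose exons overlap over 195 bases. Hars was at 46.7 and 17.5 CPM with sorafenib, against 62.9 and 51.5 CPM with carrier, while Hars2 was at the levels given above. The ratio of Hars to Hars2 was 1.35 and 0.544 in sorafenib replicates 1 and 2, against 2.22 and 1.82 in carrier replicates 1 and 2. Per kilobase of principal transcript, Hars was at 23.5 and 8.82 CPM and Hars2 at 10.4 and 9.66 CPM in the sorafenib libraries, so that Hars2 exceeded Hars in sorafenib replicate 2, the only library of the 4 where it did. Because the exons lie on opposite strands, reads in the shared 195 bases are uncertain unless counted by strand. The difference of the log2 fold changes was -1.19.

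In 8 pairs (His, Ser, Val, Asn, Ile, Trp, Leu and Phe) the cytosolic gene was lower relative to its mitochondrial partner in each sorafenib library than in either carrier library. For serine the ratio was 6.61 and 5.43 in the sorafenib libraries and 10.04 and 14.0 in the carrier libraries, and for valine 4.07 and 1.97 against 5.09 and 5.19. In 3 pairs (Met, Pro and Arg) the order was the opposite. The share of other gene pairs with either order was not computed, so these counts have no background beside them. For methionine the ratio was 32.5 and 29.4 in sorafenib and 10.7 and 15.0 in carrier tumors. For proline it was 28.8 and 166 in sorafenib and 21.1 and 24.9 in carrier tumors, the second value resting on the 3 Pars2 reads. The other 6 pairs overlapped between groups; for alanine the ratio was 8.33 and 7.89 against 7.17 and 8.28 in carrier.

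**Figure D4:**
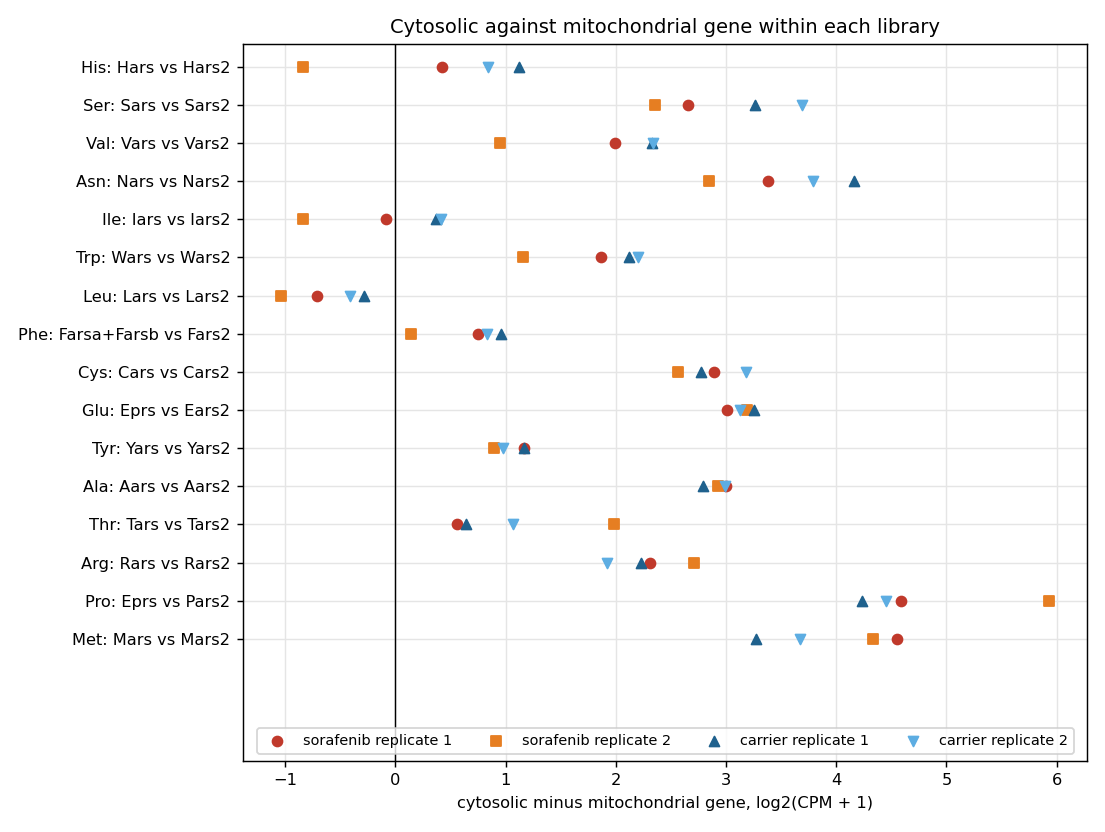
Cytosolic minus mitochondrial gene on log2(CPM + 1) for 16 of the 17 amino acid pairs in the 4 libraries, ordered from the most negative shift (His, -1.19) at the top to the most positive (Met, 0.97) at the bottom. In the upper 8 rows both sorafenib points lie left of both carrier points, and in the lowest 3 rows right of them. The share of other gene pairs with either order was not computed.

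Other genes of tRNA charging and delivery went in both directions. The cytosolic elongation factors, which bring charged tRNA to the ribosome and move it on, had 5 of 5 tested members below both carrier libraries, against 41.3% of all tested genes, and a median of -1.03. Eef1g was at 110 and 50.5 CPM in sorafenib and 174 and 196 CPM in carrier tumors, Eef1b2 at 312 and 95.9 CPM against 513 and 470 CPM, and Eef1d at 159 and 100 CPM against 185 and 200 CPM. Eef2 was at 1286 and 715 CPM against 2089 and 1831 CPM in carrier, and Eef1a1 at 1685 and 787 CPM against 2520 and 2124 CPM. Eef1a2 was at 0 CPM in every library except carrier replicate 1, where it was at 0.169 CPM. It was below the filter and was not tested.

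Of 9 mitochondrial translation factors, 4 lay below both carrier libraries and 0 above, near the 41.3% of all tested genes that lay below, and the median of -0.22 was near the -0.26 of all tested genes. Tufm, the mitochondrial elongation factor that carries charged tRNA, was at 32.9 and 16.8 CPM in sorafenib and 42.6 and 35.3 CPM in carrier tumors, and Tsfm, its exchange factor, at 20.2 and 14.9 CPM against 28.0 and 24.5 CPM. Mtif3, an initiation factor and the only member of the 9 with a positive fold change, was at 18.2 and 13.2 CPM against 10.6 and 15.5 CPM. Mitochondria make their glutaminyl-tRNA with an amidotransferase, whose subunit genes Gatb and Gatc had log2 fold changes of -0.14 and -0.15. Qrsl1, its catalytic subunit, was at 4.18 and 3.43 CPM against 9.94 and 7.17 CPM in carrier (log2 fold change -0.98, SE 0.369, limma adjusted p = 0.258). Mtfmt, which formylates the initiator methionyl-tRNA, was at 16.2 and 6.67 CPM against 15.8 and 13.0 CPM. No member of these lists passed the test.

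Selenocysteine is made on its own tRNA, and of its 5 genes 2 lay above and 2 below both carrier libraries, where 17.5% of all tested genes lay above and 41.3% below. Sepsecs, which completes that synthesis, was at 86.5 and 84.6 CPM in sorafenib and 62.9 and 65.3 CPM in carrier tumors (log2 fold change 0.41, SE 0.205, limma adjusted p = 0.303). Eefsec, its elongation factor, was at 36.1 and 37.0 CPM against 25.5 and 26.2 CPM (0.49, SE 0.238, adjusted p = 0.3 by limma). Pstk, the kinase of the step before Sepsecs, and Secisbp2 were the genes that lay below, both with a log2 fold change of -0.58, and Sephs2, which overlapped, had -0.04. Among 17 tested genes of tRNA ends, splicing and export, 5 lay below and 1 above, with a median of -0.32; the share below was smaller than the 41.3% of all tested genes, and so was the share above than their 17.5%. Rtcb, the tRNA ligase, was at 56.8 and 34.1 CPM against 85.5 and 88.3 CPM in carrier, and Rpp38, of RNase P, at 7.87 and 4.19 CPM against 16.7 and 10.4 CPM. Xpot, the tRNA exporter, was at 122 and 162 CPM in sorafenib and 118 and 113 CPM in carrier tumors, and Tsen15 at 8.11 and 3.24 CPM against 2.53 and 4.15 CPM. Of the proofreading genes Dtd1, Dtd2, Prorsd1, Ankrd16 and Aarsd1, no tested gene lay below or above both carrier libraries in both sorafenib libraries; the log2 fold changes of the first 4 were -0.27, -0.12, 0.41 and -0.40, and Aarsd1 was below the filter.

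Of 20 genes of the amino acid starvation response, 14 lay below both carrier libraries and 1 above, against 41.3% and 17.5% of all tested genes, with a median of -0.86 against -0.26. Asns, asparagine synthetase, named here after its values were seen, was at 34.7 and 0.381 CPM in sorafenib replicates 1 and 2, against 105 and 76.8 CPM in the carrier libraries. Nars, which charges tRNA with the amino acid that Asns makes, was at 106 CPM in the library with the lower Asns value. Nupr1, a stress-induced gene, was at 1.48 and 0.572 CPM against 9.27 and 8.11 CPM, and Pck2, the mitochondrial PEP carboxykinase, at 18.9 and 4.77 CPM against 44.7 and 39.4 CPM. Chac1, a glutathione-degrading ATF4 target and the only member of the 20 above both carrier libraries, was at 6.88 and 9.15 CPM against 4.21 and 5.28 CPM. Atf4 itself was at 163 and 108 CPM in sorafenib and 187 and 159 CPM in carrier tumors (limma adjusted p = 0.434), and Eif2ak4, the kinase GCN2 that senses uncharged tRNA, at 24.6 and 13.3 CPM against 35.2 and 19.997 CPM; both overlapped between groups. Myc was at 28.8 and 15.8 CPM against 70.6 and 78.1 CPM, and Nras at 47.0 and 22.1 CPM against 88.3 and 83.4 CPM. These values may include reads of the injected transposons, which was not tested.

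Levels of different genes were compared per kilobase of principal transcript. Nars ranked 1 of 38 in every library, at 48.6 CPM per kilobase on average in sorafenib and 79.8 in carrier tumors. Mars2 ranked 38 in every library, at 0.202 and 0.629. That rank depends on its annotated transcript of 11294 bases, the longest of the 38. In CPM, Pars2 was lower than Mars2 in sorafenib replicate 2 (0.572 against 2.10) and in carrier replicate 1 (7.92 against 8.93). Aars ranked 4 and 2 in sorafenib replicates 1 and 2, against 12 and 10 in the carrier libraries. Tars ranked 18 and 5 in sorafenib replicates 1 and 2, and 18 and 15 in the carrier libraries. Vars ranked 3 and 15 in the sorafenib libraries and 3 and 6 in the carrier libraries, and Hars 12 and 22 against 13 and 14. Among the 17 mitochondrial genes Tars2 and Lars2 had the highest carrier means, at 23.4 and 23.0 CPM per kilobase; in sorafenib tumors they were at 14.3 and 17.4.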

How the data were processed

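Poly(A) RNA of 4 mouse liver tumor samples was sequenced with a stranded TruSeq protocol, single-end with 75 cycles, per the labels' protocols. GRCm38, edgeR 3.22.5, Subread 1.6.3 and STAR 2.6.1c appear in the submitters' processing notes; not given in the sources used here is which step each served, whether strand was used in counting, and how multiply mapped reads were treated. The authors deposited 1 table per library whose column, headed reads, holds CPM: each sums to 1000000, and 100% of the values above 0 are whole multiples (within 0.01) of the smallest, so whole reads were recovered. A read was worth 0.169 to 0.246 CPM, and a count of 0 allows up to 3 reads, 0.506 to 0.738 CPM.

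The main test was limma 3.58.1 (R 4.3.3) on log2(CPM + 1) with a mean-variance trend, over the 13149 genes that reached 1 CPM in 2 or more libraries, with Benjamini-Hochberg adjustment (calls at adjusted p below 0.05). DESeq2 1.42.0 and edgeR 4.0.16 on recovered reads, other scalings, pseudocounts, filters and left-out libraries were alternatives. The scripts were tested on reads simulated with the spread of the carrier libraries. The sorafenib libraries differed more from each other, so the simulation does not show how the test performs on these data. Members, lists and tests were chosen with earlier results of these data known. All members may be named; other tRNA, translation and starvation lists give all members (up to 6) or the 2 with the smallest p in each direction, plus Atf4, Eif2ak4, Myc and Nras. Cell type marker lists are given by counts and sums, with single markers named after their values were seen. Replicates were not duplicates of a library: chi-square over its degrees of freedom was 40.9 between the sorafenib libraries and 9.09 between the carrier libraries. Positions, exons and transcripts came from GENCODE M21 on GRCm38, which holds all 38 members. For 1 mitochondrial gene, counted in every total, no result of its own is reported here.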

Additional observations from a re-analysis of the deposited data

How the results depend on the processing

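Over all genes, limma called 0 at adjusted p below 0.05 (2529 at an unadjusted p below 0.05), edgeR's quasi-likelihood test 0 and DESeq2 498 (450 higher, 48 lower) of 11109 with an adjusted p. Leaving out each replicate gave 0 to 5149 calls: 5149 without sorafenib replicate 1, 398 without sorafenib replicate 2 and 0 without either carrier replicate. The cytosolic median (-0.87) ran from -1.19 to -0.52 over the left-out replicates and stayed negative under every alternative run. The mitochondrial median (-0.44) was -0.19 with RLE factors, -0.18 with upper-quartile factors and -0.19 by DESeq2, and ran from -0.73 to -0.29 over the left-out replicates. The median pair difference (-0.25) ran from -0.41 without sorafenib replicate 1 to -0.15 without carrier replicate 2. Counting Tarsl2 as mitochondrial moved none of the 3 medians by more than the spread between replicates. Leaving out Gars and Kars left the cytosolic median at -0.87. The other medians could not change there, because Gars and Kars are in neither the mitochondrial set nor the pairs. Tarsl2 (-0.15) changed sign with TMM (0.051), RLE (0.076) and upper-quartile (0.093) factors, by edgeR (0.12) and by DESeq2 (0.15), and ran from -0.36 to 0.051 over the left-out replicates. Tars (-0.32) was at 0.0093 by DESeq2. Over the left-out replicates Aars2 ran from -0.10 to 0.25, Nars2 from -0.030 to 0.27 and Sars2 from -0.26 to 0.46. The cause of these changes was not tested. With the replicate block limma called 0 genes. In this balanced layout the block can change p-values but no fold change, so the medians, -0.87 and -0.44, could not move. Same-numbered samples are known to share only a number. Their deviations from the group means had a correlation of 0.15 across 13149 genes. With 2 libraries per group that value cannot show whether the samples were paired. Depth limits Pars2 and Mars2 most.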
